A study of Mus musculus with 12 samples.

Results

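The interferon regulatory factors (IRFs) were examined in 3 RNA-seq libraries of IL-1β-treated mouse fibroblasts. The 8 genes were taken by symbol through their Entrez IDs: Irf1, Irf2, Irf3, Irf4, Irf5, Irf7, Irf8 and Irf9, out of 27179 gene IDs in the count tables. The cells were NIH3T3, an immortalized mouse embryonic fibroblast line, RelA-/- and carrying a Rela-DsRed reporter; Rela encodes p65, a subunit of NF-κB. All 12 samples of the study came from these cells after 2 h in custom microfluidic devices with IL-1b at 0.2 ng/mL, LPS at 100 ng/mL, PAM at 0.2 ng/mL or media, with 3 samples a group. Each of the 9 tables deposited for LPS, PAM and media equals the one of IL-1 replicate 3 in every byte, so only the 3 distinct tables, those of the IL-1 group, were used. No stimulus was compared with media, and the values below do not show whether IL-1β changed a gene. Whether the libraries are separate cultures, whether the line is 1 clone and what promoter drives the reporter are not stated in the labels, so the SD between libraries may be technical.

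IRFs are transcription factors that share an N-terminal DNA-binding domain and recognise repeats of the core GAAA. Irf3 and Irf2 are transcribed in most cell types. The IRF3 protein waits in the cytoplasm until the kinases TBK1 or IKKε phosphorylate it, and IRF2 competes with IRF1 for shared sites. Irf1, Irf7 and Irf9 are raised by interferons: IRF9 is the DNA-binding subunit of the complex ISGF3, which also holds STAT2, IRF7 amplifies the interferon α genes, and IRF1 acts downstream of interferon γ and of NF-κB. Irf4, Irf5 and Irf8 are best known from lymphoid and myeloid cells.

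Interferon and NF-κB inputs often act near the transcript start, so bases before it are printed here for members that differ in the results: Irf7 and Irf1 as inducible genes that varied unlike each other, Irf2 as a broadly transcribed gene that varied, and Irf8 as a gene with no count. Sequences are from RefSeq (GRCm38.p6), on the strand of the gene, with matches to 3 motifs in capitals. The motifs were the interferon-stimulated response element core GAAANNGAAA (ISRE), the STAT element TTCNNNGAA (GAS) and the NF-κB consensus, each searched on both strands of the 250 bases before the start. All 8 genes had at least 1 promoter window in the table, 11 in all. The bases nearest the Irf7 start are left out because an exon of another Irf7 transcript in GENCODE M21 covers them. The RefSeq span of Irf7 reaches 141266499, so the last bases of its printed stretch, down to 141266483, still lie inside that span.
Irf1, chr11:53769894-53770013, plus strand: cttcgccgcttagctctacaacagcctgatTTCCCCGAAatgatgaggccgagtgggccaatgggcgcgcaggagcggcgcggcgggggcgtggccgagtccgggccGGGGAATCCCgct
Irf2, chr8:46739495-46739544, plus strand: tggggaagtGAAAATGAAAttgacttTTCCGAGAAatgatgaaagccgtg
Irf7, chr7:141266483-141266674, minus strand: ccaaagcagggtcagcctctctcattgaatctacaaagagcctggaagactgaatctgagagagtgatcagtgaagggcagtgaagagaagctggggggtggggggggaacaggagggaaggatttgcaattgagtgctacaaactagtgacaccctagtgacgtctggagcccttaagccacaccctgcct
Irf8, chr8:120736168-120736227, plus strand: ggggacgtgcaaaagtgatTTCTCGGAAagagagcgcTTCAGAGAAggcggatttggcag

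In Irf1, the GAS match TTCCCCGAA ends 82 bases before the start and the NF-κB match GGGGAATCCC 4 bases before it. Irf2 held an ISRE and a GAS match in the stretch shown, and an NF-κB match 17 to 8 bases before its start. Irf8 held a pair of GAS matches. No window of Irf3, Irf4, Irf5, Irf7 or Irf9 held any of these letters, which says nothing about sites elsewhere. For Irf5 all bases searched, from 29526375 to the start at 29526625, lay inside its annotated span, which begins at 29526130. For Irf7 part of them did, with the start at 141266424 and the span reaching 141266499. Bases outside the span were thus not searched for Irf5 and only in part for Irf7. Among 32851 RefSeq windows, 2.98% held the ISRE, 7.02% the GAS and 3.9% the NF-κB match. The matches are sequence descriptions, and no binding was measured.

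The cells expressed the broadly transcribed and the interferon-inducible members, and not the lymphoid members Irf4 and Irf8. A gene was called detected where every library held it at 1 CPM or above, CPM being its counts per 1000000 in that library. Of the 8 members 6 were detected, as were 51.1% of 20979 protein-coding gene IDs. All 6 were highest in replicate 1, and Irf7 stood out, at about 2.00 times its level in the other libraries. The plot of CPM by gene and library shows these values.

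**Figure D1:**
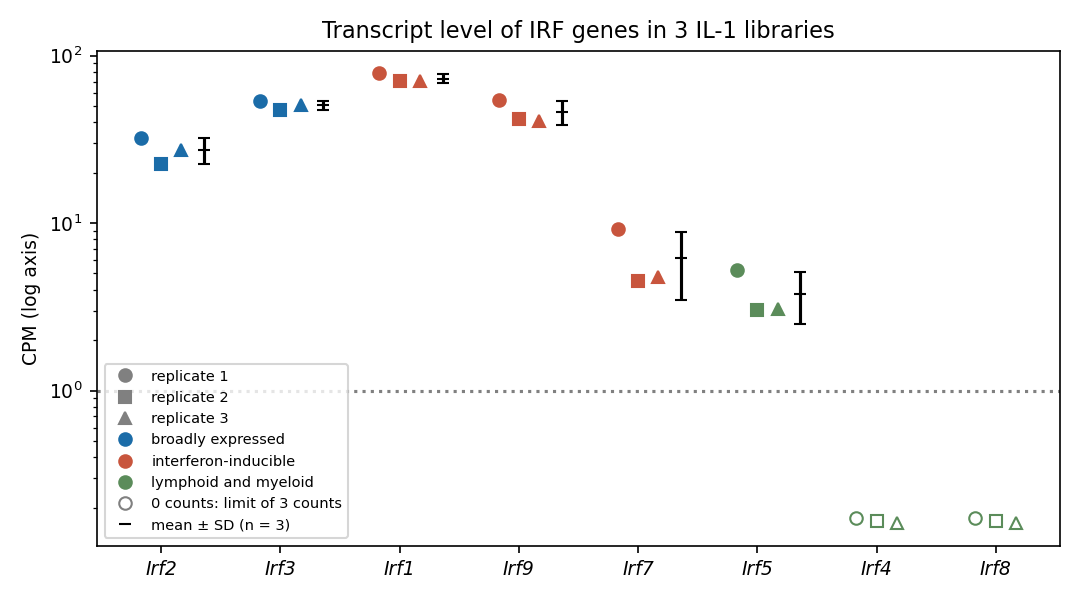
CPM on a log axis of each IRF gene in the 3 IL-1 libraries, with the mean ± SD (n = 3) in black, colours for the 3 classes and a dotted line at 1 CPM. Irf1 lies highest, between 70.1 and 78.4 CPM, and the open symbols of Irf4 and Irf8 mark the limit of 3 counts that a count of 0 allows.

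Among the broadly transcribed members, Irf3 (Entrez 54131, chromosome 7, 44997648 to 45002848) had 925, 854 and 945 counts, or 53.6, 47.2 and 50.9 CPM, in replicates 1, 2 and 3. The mean was 50.6 ± 3.21 CPM (SD, n = 3). Replicates 1 and 3 were close, and the whole spread was small. Irf2 (Entrez 16363, chromosome 8, 46739745 to 46847458) had 555, 408 and 507 counts, or 32.2, 22.6 and 27.3 CPM, with a mean of 27.3 ± 4.81 CPM. Its libraries were spread apart, with replicate 2 the lowest. The coefficient of variation was 17.6% for Irf2 and 6.35% for Irf3, against 4.52% and 3.32% that counting error alone would give.

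Among the inducible members, Irf1 (Entrez 16362, chromosome 11, 53770014 to 53778374) had 1353, 1270 and 1303 counts, or 78.4, 70.2 and 70.1 CPM, with a mean of 72.9 ± 4.76 CPM. Replicate 1 was slightly above the others, which nearly coincided. Irf9 (Entrez 16391, chromosome 14, 55603985 to 55610030) had 937, 760 and 759 counts, or 54.3, 42.0 and 40.9 CPM, with a mean of 45.7 ± 7.45 CPM. Irf7 (Entrez 54123, chromosome 7, 141263183 to 141266499) had 159, 81 and 88 counts, or 9.21, 4.48 and 4.74 CPM, with a mean of 6.14 ± 2.66 CPM. For both genes replicate 1 was high and the other libraries lay together. The coefficient of variation was 43.4% for Irf7, 16.3% for Irf9 and 6.53% for Irf1, so the inducible members did not vary alike. Counting error alone would give 9.56%, 3.49% and 2.76%.

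Among the lymphoid and myeloid members, Irf4 (Entrez 16364, chromosome 13, 30749233 to 30766981) and Irf8 (Entrez 15900, chromosome 8, 120736358 to 120756694) had no count in any library. A count of 0 allows up to 3 counts, or 0.0556 CPM over the 3 libraries together. Irf5 (Entrez 27056, chromosome 6, 29526130 to 29541869) had 91, 55 and 57 counts, or 5.27, 3.04 and 3.07 CPM, with a mean of 3.79 ± 1.28 CPM. It was thus detected, unlike the other members of its class, and replicate 1 was again the highest. The annotated span of Irf5 shares 1043 bp with that of Tnpo3, a nuclear import receptor, which had 5140, 4731 and 4969 counts. The strand setting of the counting is not given in the sources used here, so reads in the shared stretch cannot be told apart, and the Irf5 level is uncertain. Tnpo3 was 1.13 times higher in replicate 1 (95% interval 1.09 to 1.17), less than Irf5.

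Markers of other cell types bear on the lymphoid class. Of 13 lymphoid markers, 1 reached 1 CPM in each library, the proteoglycan Sdc1 at 112, 101 and 105 CPM, which other cell types also express. The defining T cell genes Cd3d, Cd3e, Cd3g and Cd8a had no count, and the pan-leukocyte gene Ptprc had 3, 0 and 6. Of 12 myeloid markers, 4 did (Lyz2, Cd74, Cd68 and Csf1r), and the summed level of the 12 was 27.1, 28.6 and 18.8 CPM. The myeloid sum was mostly Lyz2, at 9.91, 12.3 and 6.89 CPM, and Cd74, at 10.8, 10.1 and 7.59 CPM. Among the low ones, the dendritic cell integrin Itgax had 37, 9 and 14 counts, Adgre1 4, 0 and 0, and Itgam 2, 0 and 0. The myeloid markers did not share 1 direction. Cd68 had 20, 55 and 36 counts and Csf1r 32, 40 and 27. Of the 4 detected, 1 was highest in replicate 1, Cd74. The part of myeloid cells in the Irf5 and Irf7 values was not tested. All 10 fibroblast markers were detected, among them Vim at 3162 ± 76.6 CPM, Sparc at 1484 ± 25.3 CPM and S100a4 at 1388 ± 154 CPM. In bulk RNA, fewer cells with a transcript and less of it per cell cannot be told apart.

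Levels of different genes were compared per kb of merged exon, since longer transcripts yield more reads. Irf1 was first, at 18.3 ± 1.20 CPM per kb, followed by Irf3 at 14.7 ± 0.933, Irf9 at 8.49 ± 1.38, Irf2 at 3.70 ± 0.650, Irf7 at 1.63 ± 0.705 and Irf5 at 1.31 ± 0.441 CPM per kb (SD, n = 3). The ranges over the libraries did not overlap between neighbours in this order except for Irf7 (1.19 to 2.44) and Irf5 (1.05 to 1.82). The order therefore cut across the classes, with an inducible member first and another next to last. It was the same per kb of coding exon and per kb of the longest transcript, as the plot of level per length shows. Of the summed CPM per kb of the family, the inducible members took 59.7%, 59.9% and 57.6% in replicates 1, 2 and 3, the broadly transcribed ones 36.9%, 37.7% and 40.1%, and Irf5 alone in the lymphoid and myeloid class 3.36%, 2.35% and 2.30%. The composition of the family was thus similar in the 3 libraries, and most of it was Irf1, Irf3 and Irf9.

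**Figure D2:**
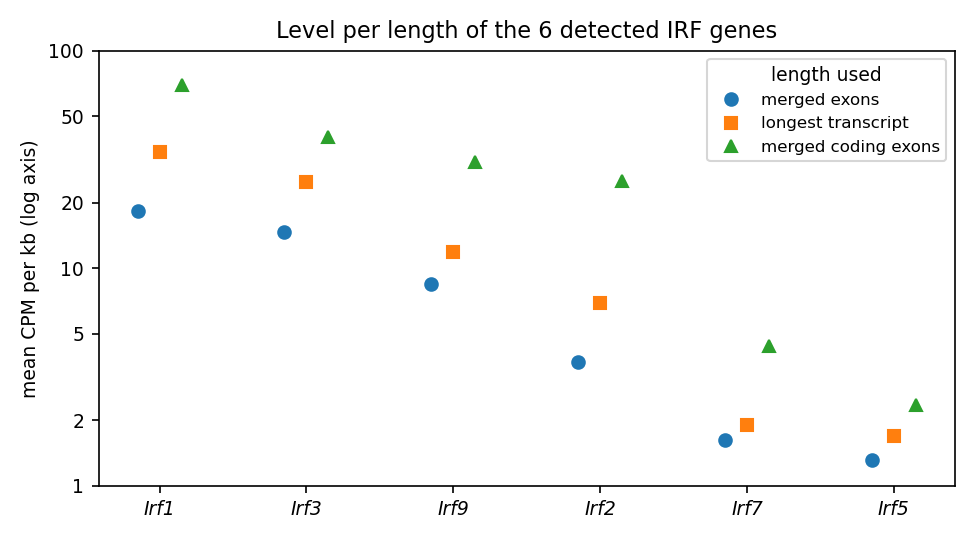
Mean CPM per kb (log axis, n = 3 libraries) of the 6 detected IRF genes with 3 definitions of length: merged exons, longest transcript and merged coding exons. All 3 give the order Irf1, Irf3, Irf9, Irf2, Irf7, Irf5, from 18.3 to 1.31 CPM per kb of merged exon.

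The libraries were then compared with each other. For each gene, the CPM of replicate 1 was divided by the pooled CPM of replicates 2 and 3, with an exact 95% interval that covers counting error only. Such a ratio compares libraries of 1 group, not conditions. Replicate 1 was singled out because interferon-stimulated genes were already known to be high in it, so its direction is a description. It was also the library with the fewest counts, 17254518 against 18091073 and 18578859, and the part of depth in the ratios was not tested.

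Irf7 had the highest ratio of the family, 2.00 (1.60 to 2.50), followed by Irf5 at 1.73 (1.29 to 2.30). Irf9 at 1.31 (1.21 to 1.42) and Irf2 at 1.29 (1.16 to 1.43) were nearly alike, although Irf2 belongs to the broadly transcribed members. Irf1 at 1.12 (1.05 to 1.19) and Irf3 at 1.09 (1.01 to 1.18) were lowest. The intervals of Irf7 and of Irf1, the inducible members at either end, did not overlap; they hold counting error of reads only, and no test was made. The classes thus did not sort the ratios: the lowest pair and the middle pair each held 1 broadly transcribed and 1 inducible gene.

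All 6 detected members were highest in replicate 1, against 45.7% of 11224 detected genes, and all 6 intervals lay above 1, against 29.4%. At least 1.5-fold was reached by 2 of the 6, Irf7 and Irf5, against 2.07% of detected genes. The median ratio was 1.30 over the 6 members and 1.03 over all detected genes. With edgeR's TMM factors the median of all genes became 1.001 and the interval of Irf3 spanned 1 (0.979 to 1.15), while those of the other 5 stayed above it. The interval of Irf3 also spanned 1 without replicate 2, at 1.05 (0.962 to 1.16). Between replicates 2 and 3 the intervals of 5 members spanned 1, with Irf7 at 0.945 (0.690 to 1.29) and Irf5 at 0.991 (0.672 to 1.46). Irf2 was the exception, with a ratio of replicate 2 to replicate 3 of 0.826 (0.724 to 0.943). Leaving out replicate 2 therefore lowered the ratio of Irf2 from 1.29 to 1.18.

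**Figure D3:**
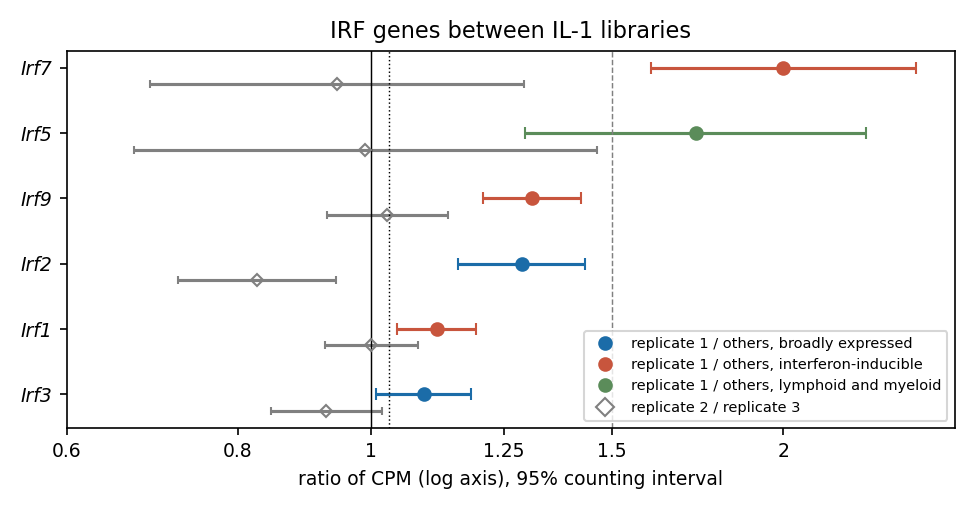
Ratios of CPM between IL-1 libraries (log axis) with exact 95% counting intervals: filled circles give replicate 1 over the pooled other libraries, open diamonds replicate 2 over replicate 3. The solid line is at 1, the dotted line at the median of all detected genes (1.03) and the dashed line at 1.5; Irf7 at 2.00 and Irf5 at 1.73 lie beyond the dashed line.

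Genes whose pattern over the 3 libraries was most like that of Irf1, Irf7 and Irf9 were looked for among 9496 genes at 5 CPM or more in each. Likeness was the Euclidean distance between log2(CPM + 0.5) values centred on their mean, over 3 libraries only. For Irf7 the nearest were Mx2 (distance 0.0208), a GTPase with antiviral relatives, Usp18 (0.0268), which removes ISG15 from proteins, and Oasl2 (0.0551), a 2′-5′ oligoadenylate synthetase relative. These are all known as interferon-stimulated genes. Mx2 had 14.1, 6.85 and 7.21 CPM and Usp18 had 697, 363 and 390 counts, the same high replicate 1 as Irf7. Within a distance of 0.1, Irf7 had 3 genes, Irf9 370 and Irf1 1981. The patterns of Irf9 and Irf1 were thus common ones: their nearest genes were Rnf135, Inpp5e, Ipo7 and Cox15 for Irf9, and Mboat2, Nol9, Cdk14 and Arid5b for Irf1. Irf7 itself, at 4.48 and 4.74 CPM in replicates 2 and 3, was below the minimum of 5 CPM, so genes as low as it were not searched. Counting error alone would give it a coefficient of variation of 9.56%, so its distances and its count of 3 genes are uncertain. Likeness over 3 libraries says nothing of shared function or control.

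The pathway around the IRFs was described from fixed lists. No interferon gene was detected: of 10 listed, 8 had no count, among them Ifnb1, Ifna4 and Ifng, while Ifna5 had 1 count in replicate 1 and Ifnl2 had 2 in replicate 3. The receptors were present, with 5 of 6 detected. Ifngr2, a chain of the interferon γ receptor, was at 145 ± 7.14 CPM, and Ifnar2, a chain of the interferon α/β receptor, at 62.4, 72.8 and 68.8 CPM. Ifnlr1, the interferon λ receptor, had no count. Receptor transcripts differed in direction. The ratio of Ifnar2 was 0.881 (0.820 to 0.946) and that of Il10rb, a chain of the interferon λ receptor, 0.883 (0.798 to 0.977). Of the 5 intervals 3 lay below 1, against 17.1% of detected genes, and 1 above it, that of Ifnar1 at 1.18 (1.10 to 1.26).

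Below the receptors, Stat2, whose protein is in ISGF3 with IRF9, had a larger ratio than Irf9 itself. It had 55.0, 26.8 and 34.8 CPM, a ratio of 1.78 (1.63 to 1.95). This interval lay above that of Irf9, which ended at 1.42. The kinase Jak1 was at 135, 107 and 108 CPM and the phosphatase Ptpn2, which acts on JAKs and STATs, at 140, 132 and 129 CPM. Of the 16 genes in the list of receptors, kinases, STATs and inhibitors, 15 were detected, 2 were past 1.5-fold, Stat2 among them, against 2.07% of all detected genes. The median ratio was 1.07, near the 1.03 of all detected genes.

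The machinery that activates IRF3 and IRF7 was also transcribed. Of 27 sensors, adaptors, ligases, kinases and inhibitors, 22 were detected, 16 of them highest in replicate 1, where 45.7% of all detected genes were. With TMM or relative log expression factors it was 13 of 23. The 45.7% holds for scaling by total counts, and the matching share under these factors is not given here. Tbk1, the IRF3 kinase, was at 147 ± 10.6 CPM with a ratio of 1.13 (1.08 to 1.18), and Myd88, the adaptor of most Toll-like receptors, at 149.5 ± 8.44 CPM with 0.938 (0.894 to 0.984). The list's median ratio was 1.15, against 1.03 over all detected genes. The genes past 1.5-fold were the RNA sensors Ifih1, with 3.42, 1.16 and 2.48 CPM, and Tlr3, with 10.1, 7.46 and 5.81 CPM, or 2 of 22 against 2.07% of all detected genes. Neither call held throughout. The ratio of Ifih1, 1.87, was 1.38 without replicate 2 and 2.95 without replicate 3. That of Tlr3, 1.52, was 1.48 with TMM factors, 1.47 with relative log expression factors, 1.49 with 0.5 CPM added and 1.35 without replicate 3. The adaptor Ticam1, by which TLR3 signals, went the other way, at 40.3, 45.5 and 48.2 CPM.

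The cofactors of IRF2 were detected and most partners of IRF4 and IRF8 were not. All 3 IRF2-binding corepressors were detected, Irf2bp2 at 36.7, 31.5 and 41.1 CPM, Irf2bpl at 15.5, 11.1 and 13.2 CPM and Irf2bp1 at 9.27, 8.68 and 7.64 CPM. Irf2bpl and Irf2bp2 were lowest in replicate 2, as Irf2 was. Their ratios of replicate 1 to the others were 1.27 (1.09 to 1.48) and 1.01 (0.917 to 1.11). Of 6 partners of IRF4 and IRF8, 1 was detected, Batf2 at 1.16, 1.44 and 1.45 CPM. Spi1, which encodes PU.1, and Batf had no count, as Irf4 and Irf8 had none.

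Of 32 interferon-stimulated genes, which hold binding sites for ISGF3 or IRFs as a class, 29 were detected. Of these 28 were highest in replicate 1, 16 were past 1.5-fold and none was at or below the inverse of that fold, against 45.7%, 2.07% and 1.14% of all detected genes. Their median ratio was 1.67. The GTPase Mx1 had 13.3, 2.98 and 3.93 CPM, a ratio of 3.83 (3.07 to 4.80), and Rsad2, which encodes viperin, had 13.3, 3.76 and 4.31 CPM, a ratio of 3.30 (2.67 to 4.09). At the other end were Isg20, an exonuclease, at 0.902 (0.809 to 1.004) and Bst2, which tethers virions, at 1.02 (0.973 to 1.06). The ratio of Irf7 lay among these genes, and those of Irf1 and Irf3 near the low end. This high replicate 1 was already known from the same libraries and is not independent support for the IRF values.

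Of 15 genes known as targets of IRF1, 14 were detected, 8 were highest in replicate 1 and 3 were past 1.5-fold, against 45.7% and 2.07% of all detected genes, with a median ratio of 1.14. The share highest in replicate 1 was thus near that of all genes. The chemokine Cxcl10 had 64.4, 30.7 and 22.9 CPM, a ratio of 2.41 (2.21 to 2.63), and the peptide transporter Tap1 30.1, 16.5 and 19.2 CPM, a ratio of 1.68. The MHC class I light chain B2m at 0.845 (0.832 to 0.858) and the chemokine Ccl5 at 0.849 (0.757 to 0.952) were lower in replicate 1. The most counted, Vcam1, an adhesion molecule, had a ratio of 1.09 (1.08 to 1.10), close to that of Irf1. Stat2, Ifih1, Trim21 and Gbp2, among others, each stand in more than 1 list, so the lists are not independent. The plot of ratios by list shows the spread within each list.

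**Figure D4:**
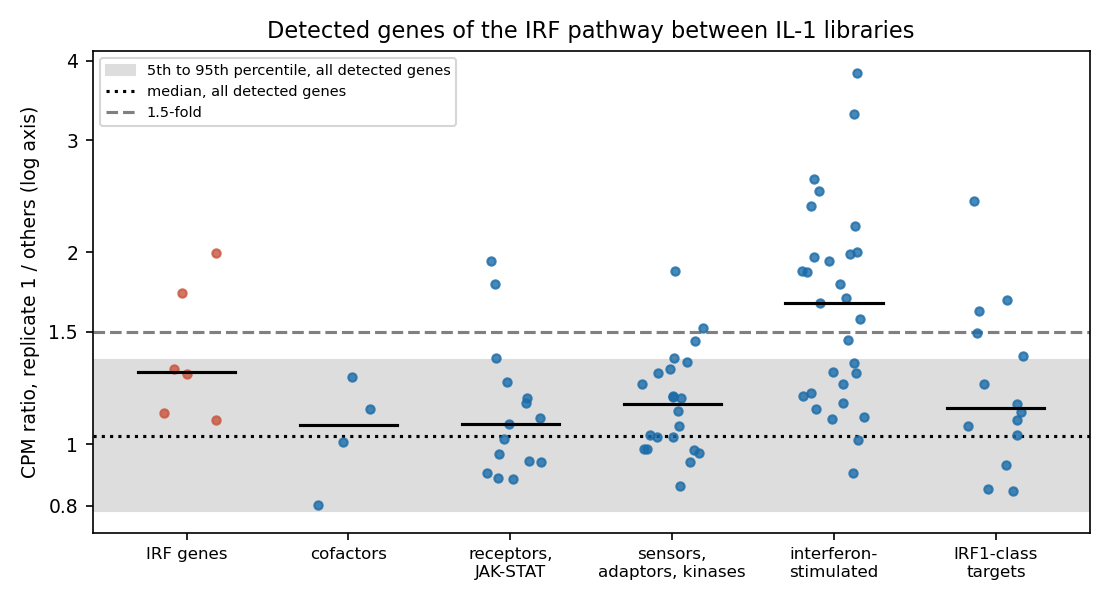
CPM of replicate 1 over the pooled other libraries (log axis) for each detected gene, by list, with the median of each list as a bar. The grey band spans the 5th to 95th percentile of all 11224 detected genes; the median of the IRF genes is 1.30 and that of the interferon-stimulated genes 1.67.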

How the data were processed

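RNA was polyA RNA from lysed cells, reverse transcribed without extraction and pre-amplified for 10 cycles, per the labels' protocols; no molecular identifiers are mentioned, so counts are reads, and intervals cover counting error only. The deposited tables hold raw counts per Entrez gene ID; the tools named for them are featureCounts, STAR and CASAVA, on mm10, per the submitters' processing notes (versions, strand setting and annotation not given in the sources used here). Symbols and spans came from RefSeq GRCm38.p6 (25275 of 27179 IDs matched), lengths from GENCODE M21. CPM used each library's total count, 17254518 to 18578859. At these totals a count of 0 allows 3 counts, 0.161 to 0.174 CPM in 1 library. Intervals are exact conditional binomial (scipy 1.17.1). They were run on simulated counts with counting error only, as the intervals assume, which checks the code and not their coverage in these reads. TMM and relative log expression factors came from edgeR 4.0.16. No test between groups was possible.

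Members, lists and comparisons were chosen with earlier results of these data known. Named were all 8 members, genes of each list with the highest CPM or the highest or lowest ratio, and the nearest patterns, except that values of some genes under these rules are not reported here; others (Ifnb1, Ifna4, Ifng, Ifnlr1, Batf, Spi1, Ifnar1, Tnpo3 and low markers) were named after their values were seen. Alternatives were other scaling, 1 library left out, a pseudocount of 0.5 CPM, other detection minimums and other lengths.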

Additional observations from a re-analysis of the deposited data

How the results depend on the processing

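No paired analysis was possible because the tables leave 1 group, IL-1. Of 283 recomputed values, 274 kept their direction and stayed within the spread or interval of the reported value or, for counts, within 1.5 times. Leaving the 10 gene IDs with the most counts out of the totals raised the mean of Irf3 to 54.9 CPM and of Irf1 to 79.2 CPM, by construction of the smaller totals. Among sensors, adaptors and kinases, 1 gene in place of 2 was past 1.5-fold with TMM factors, relative log expression factors, a pseudocount or a minimum of 2 CPM, which Ifih1 did not reach in replicate 2; leaving out 1 library gave 1 (without replicate 2) to 3 (without replicate 3). Among the IRF1 targets, 3 were past 1.5-fold, as without replicate 2, and 5 without replicate 3. The median ratio of the cofactors, 1.07, was 1.12 without replicate 3 and fell below 1, to 0.893, without replicate 2. Without replicate 2, 5 cofactors were detected in place of 4, as Batf3 was below 1 CPM in that library only. These medians are thus not over the same genes, and the median of the same 4 genes is not given here. For the mean levels, the bound of 1 SD holds by construction when 1 library is left out. Depth limits Irf4, Irf8 and the interferon genes, which had at most 3 counts in all.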

Other observations

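Genes whose annotated spans lie within 1 kb of an IRF gene were also compared between the libraries. Bcl2l12, 10 bp from Irf3, had 9.04, 7.08 and 7.64 CPM in replicates 1, 2 and 3, a ratio of replicate 1 to the others of 1.23. Phrf1, 432 bp from Irf7, had 39.2, 31.0 and 32.1 CPM, a ratio of 1.24 (1.13 to 1.37), below the interval of Irf7. Rnf31, 311 bp from Irf9, encodes a subunit of the linear ubiquitin ligase; it had 19.8, 15.6 and 16.4 CPM, a ratio of 1.23 (1.08 to 1.41), which overlaps that of Irf9. Scaf1, 98 bp from the other end of Irf3, had a ratio of 0.988 (0.738 to 1.31). Gm16675, a lncRNA gene 230 bp from Irf2, was not detected, with 5, 15 and 8 counts; its ratio of 0.462 (0.137 to 1.24) lay on the other side of 1 from that of Irf2.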
